A study of Equus caballus with 20 samples.

Results

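The miR-148 and miR-152 family was followed in the extracellular vesicles of mare follicular fluid over 5 stages of follicle growth. The family was taken by name, as the table rows eca-miR-148a, eca-miR-148b-3p and eca-miR-152 above 0 (the horse prefix eca- is left out below). Of these 3 names, 2 were analysed, miR-148a and miR-148b-3p, among 686 miRNA names in the table and 325 above 0 in any library. MiR-152 was not analysed here. The other arm of the miR-148b hairpin, miR-148b-5p, was added.

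MicroRNAs are short RNAs that pair through their seed, a few bases near the 5′ end, with messenger RNAs and lower their translation and stability. The members of this family share a seed and so share most predicted targets. In human cells they are known for repressing the DNA methyltransferase DNMT1, and miR-148a in mouse and human liver for repressing the low-density lipoprotein receptor and the cholesterol exporter ABCA1. Vesicles released into follicular fluid, which bathes the oocyte and granulosa cells, carry such RNAs between cells.

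The donors were 19 mares of the same breed, aged 8 to 14 years with a normal reproductive tract. In all of them a new wave of follicles had been started by removing every follicle of 6 mm or more on Days 10 to 11 of the cycle. Fluid was aspirated from growing follicles of 18 to 20 mm (predeviation), 22 to 25 mm (deviation, when 1 follicle becomes dominant), 26 to 29 mm (postdeviation) and 30 to 35 mm (preovulatory), and from follicles showing signs of imminent ovulation (impending ovulation). Each stage held 4 libraries. With 20 libraries from 19 mares, some must share a mare. The labels do not tell which, and the tests treat all libraries as independent. A p-value here reflects how these samples vary, which may in part be technical. Libraries held 27131 to 110130 reads, which were recovered from the deposited values. Those values are reads scaled by a factor per library and are called scaled reads. Of the granulosa cell markers, miR-21 and miR-378 were above 0 in 20 of 20 libraries, miR-224 in 18, miR-132 in 16 and miR-383 in 4. In this order their means were 115214, 9639, 61.6, 55.1 and 4.20 scaled reads.

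MiR-148a was the leading miRNA of the vesicles, first in 18 of 20 libraries and second to miR-21 in predeviation library 3 and preovulatory library 3. Its lead over the second miRNA ran from 1.04-fold in impending ovulation library 4 to 6.54-fold in predeviation library 4. MiR-148b-3p stood between ranks 40 and 52 in the libraries. For every read of miR-148b-3p a library held between 58.0 and 351 reads of miR-148a. MiR-148a rested on 3819 to 43533 reads per library, miR-148b-3p on 37 to 369. MiR-148b-5p had 0 to 6 reads per library and 30 in all, above 0 in 13 of 20 libraries, which is too few for comparing stages.

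MiR-148a had its highest mean at predeviation, a place that rested on library 4, and was lower at the preovulatory stage and impending ovulation. At predeviation its values were 269572, 264904, 276040 and 828709 scaled reads. The first 3 lay close together and the fourth, from library 4, was far above them. At deviation the values were 242743, 361034, 242927 and 265173. These overlapped predeviation. Postdeviation libraries had 185728, 179431, 292428 and 167125, of which only library 3 reached the predeviation range. At the preovulatory stage the values were 188836, 145935, 139410 and 137680, and at impending ovulation 168561, 143183, 211288 and 156324. All libraries of these last stages lay below all 4 of predeviation. Of the 264 miRNAs tested, 3.03% were likewise lower without overlap at the preovulatory stage and 2.65% at impending ovulation.

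The stage means of miR-148a were 409806 ± 279306 at predeviation (SD, n = 4), 277969 ± 56369 at deviation, 206178 ± 58017 at postdeviation, 169839 ± 29512 at impending ovulation and 152965 ± 24177 at the preovulatory stage. Each stage overlapped its neighbour in this order. Without predeviation library 4 the predeviation mean was 270172 ± 5592 (SD, n = 3), below that of deviation. Fewer vesicles carrying a miRNA and fewer copies per vesicle cannot be told apart in such samples.

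**Figure D1:**
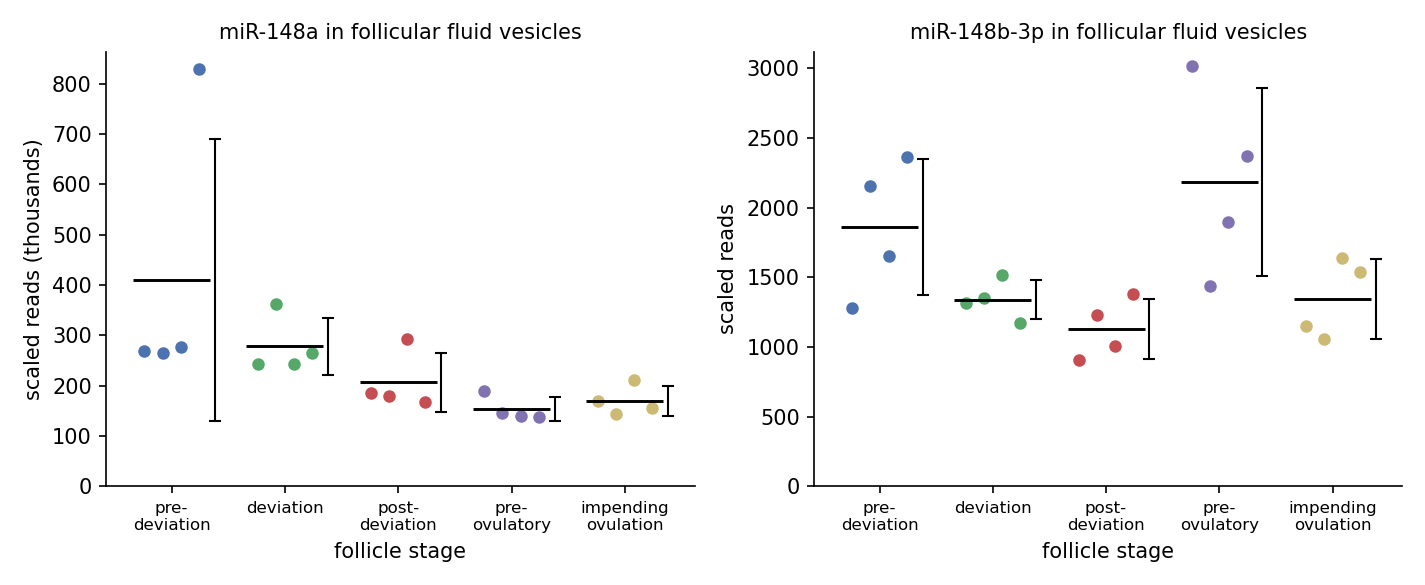
Scaled reads of miR-148a (left, in units of 1000) and miR-148b-3p (right) in each of the 20 libraries, by follicle stage; points are libraries, horizontal lines are stage means and bars to their right are 1 SD (n = 4). MiR-148a was lower in all preovulatory and impending ovulation libraries than in any predeviation library, with predeviation library 4 far above the rest, while miR-148b-3p was lowest on average at postdeviation and highest at the preovulatory stage.

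Over the stage order, miR-148a fell by 0.30 ± 0.07 (SE) on the log2(value + 1) scale per stage step (limma adjusted p = 0.0136, 20 libraries). In this trend 5.68% of all 264 miRNAs passed, 1.14% as lower and 4.55% as higher. The call was lost with libraries brought to equal totals (adjusted p = 0.0598), with limma's prior variance held constant over intensity (0.0595), without both libraries under 40000 reads (0.0824) and without impending ovulation library 2 (0.0543). The slope was -0.22 without predeviation library 4. Equal totals raised the median of all miRNAs by 0.11 per step and by 0.44 at the preovulatory stage, and turned the trend calls of all miRNAs from 12 higher and 3 lower to 23 and 1. With quantile normalization the slope was 0.02, a setting that gives the first-ranked miRNA of every library the same value, and miR-148a was first in 18 of 20.

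Against predeviation, the preovulatory stage had less miR-148a, a 2.36-fold lower level (log2 -1.24 ± 0.33, limma adjusted p = 0.0370, lower in 4 of 4 libraries). In that comparison 4.92% of miRNAs passed, 1.89% as lower, and the median log2 change of all tested miRNAs was 0.04. The call was kept in 16 of 20 fits that left out 1 library. It was lost without predeviation library 4, where the log2 change was -0.83 (adjusted p = 0.0503). It was also lost without preovulatory library 2 (-1.22, 0.0615), 3 (-1.20, 0.0661) or 4 (-1.19, 0.122), where the log2 change stayed near -1.24. Other settings that ended the call were fits with equal totals (log2 -0.76, 0.105), with equal totals other than miR-148a (-1.02, 0.0888) and with only these stages fitted (0.287). So did a constant prior variance (0.103), the replicate number as a block (0.0622) and leaving out both libraries under 40000 reads (0.0901). With quantile normalization the log2 change was 0.0.

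Impending ovulation was 2.13-fold below predeviation (log2 -1.09 ± 0.33, limma adjusted p = 0.0543, lower in 4 of 4 libraries), which did not pass, in a comparison where 5.68% of miRNAs did, 1.14% as lower. With edgeR on recovered reads the adjusted p was 0.0380 and with DESeq2 0.0155. DESeq2 called 24 of all miRNAs in this comparison, and limma 15. The log2 change was -0.83 ± 0.33 at postdeviation (limma adjusted p = 0.187, 6.06% of all miRNAs called) and -0.38 ± 0.33 at deviation (0.891, 0.379% called). These 4 comparisons share the predeviation libraries. The F test over the 5 stages gave miR-148a a limma adjusted p = 0.0808, with 4.92% of all miRNAs called. At the deviation step the sign turned without predeviation library 4 (log2 0.02) and with quantile normalization (0.22).

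**Figure D2:**
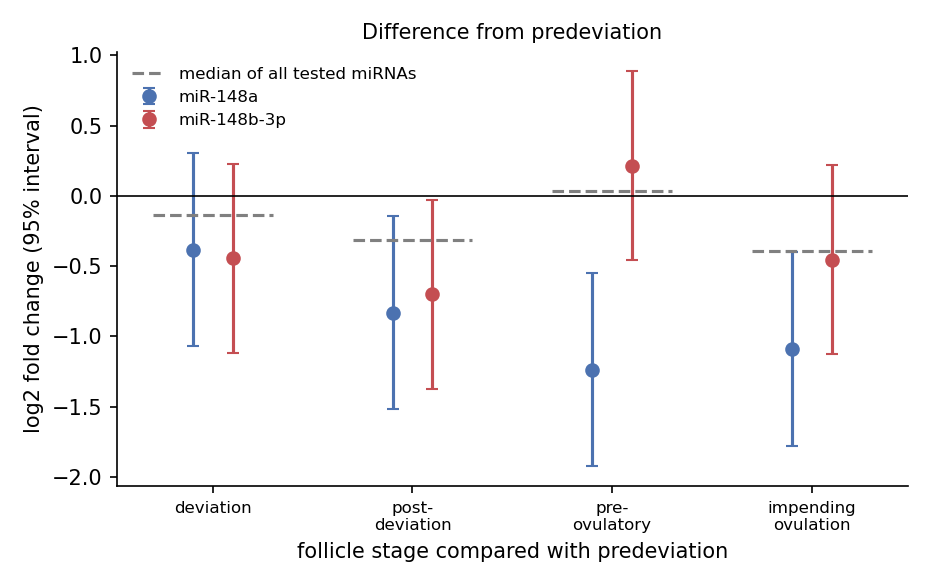
Log2 fold change of miR-148a (blue) and miR-148b-3p (red) at each later stage against predeviation, with 95% intervals from limma; dashed grey lines are the median of all 264 tested miRNAs. The preovulatory interval of miR-148a lay between -1.92 and -0.55, while that of miR-148b-3p held 0.

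The share of a miRNA in its own library does not depend on the scaling factor. MiR-148a made up 30.0% ± 11.0 of a library at predeviation (SD, n = 4), 26.1% ± 5.83 at deviation, 22.2% ± 5.94 at postdeviation, 17.3% ± 3.47 at the preovulatory stage and 18.6% ± 2.10 at impending ovulation. Predeviation library 4 held 46.6% (exact Clopper-Pearson 95% interval 46.3 to 46.9), and the other 3 of that stage 24.3% to 24.7%. The widest of the 20 intervals reached 0.426 percentage points to either side. These intervals cover counting error only, since reads carry no molecular identifiers.

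The share of miR-148a fell by 3.18 ± 0.963 (SE) percentage points per stage step in a permutation test over 20 libraries (adjusted p = 0.0028 over 4 measures). Leaving out any 1 library gave slopes from -3.47 to -2.15 and adjusted p of 0.0143 or less. The slope was -2.95 (adjusted p = 0.00494) once log2 reads of the library were taken out. Between impending ovulation and predeviation the share differed by -11.5 percentage points (exact permutation p = 0.0286, the smallest that 4 against 4 libraries allow, adjusted p = 0.0571). The summed share of both members fell by 3.17 ± 0.962 points per step in the same permutation test (adjusted p = 0.0028), close to miR-148a alone. The adjustment over 4 measures counted both, though they are nearly the same measure (permutation p = 0.00140 and 0.00138). The limma trend with equal library totals, which tests the miR-148a share on a log2 scale, did not pass (adjusted p = 0.0598). That p-value was adjusted over all tested miRNAs and not over 4 measures. In the permutation test the log2 share had a slope of -0.19 per step and passed (adjusted p of 0.00494 or less over 4 measures).

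The sum of all other miRNAs was compared for reference. Without miR-148a, predeviation libraries summed to 861256 ± 62376 scaled reads (SD, n = 4) and preovulatory libraries to 742990 ± 104052. The sum of predeviation library 4 was 1778185, the highest of all, of which 949476 were reads other than miR-148a, also the highest of all 20 libraries.

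**Figure D3:**
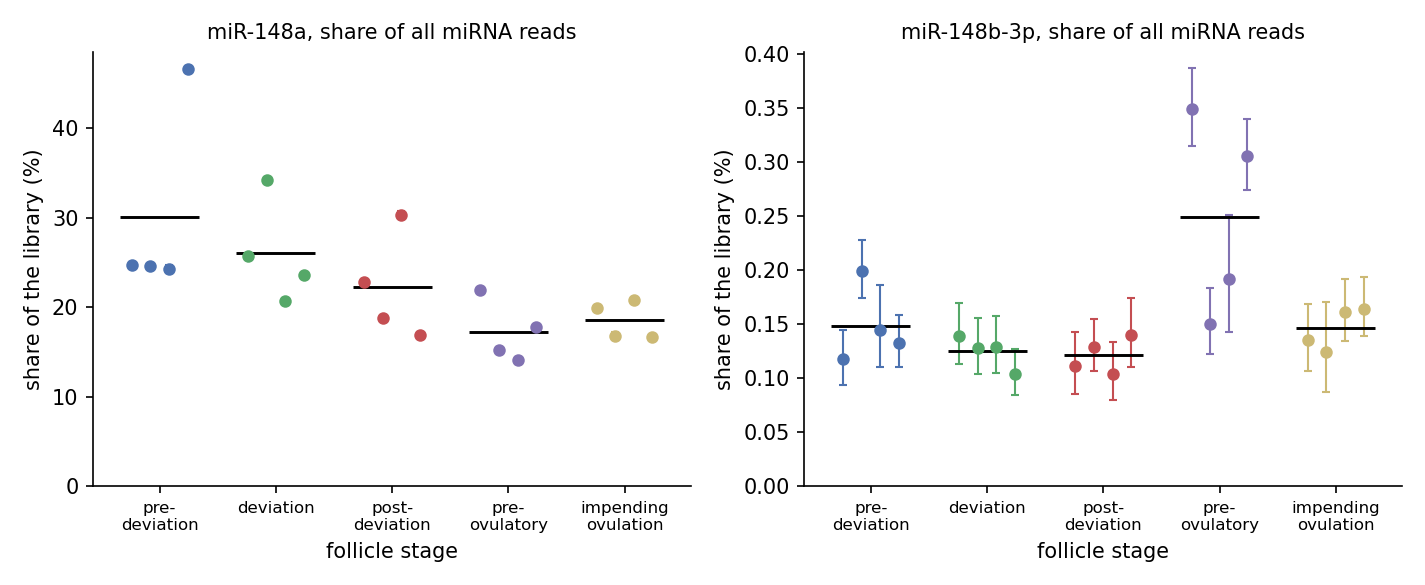
Share (%) of miR-148a (left) and miR-148b-3p (right) among all miRNA reads of a library, by follicle stage; points are libraries with exact 95% counting intervals, smaller than the points for miR-148a, and horizontal lines are stage means. The miR-148a share ran from 14.1% to 46.6%, and that of miR-148b-3p from 0.104% to 0.350%.

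MiR-148b-3p, which differs from miR-148a outside the seed and is encoded at another locus, was highest on average at the preovulatory stage, where miR-148a was lowest. Its predeviation values were 1283, 2154, 1649 and 2361 scaled reads. At deviation they were 1315, 1350, 1513 and 1173, and at postdeviation 907, 1227, 1005 and 1380. Predeviation libraries 2, 3 and 4 lay above all 8 of these and library 1 among them. At the preovulatory stage the values were 3015, 1440, 1898 and 2372, and at impending ovulation 1148, 1054, 1638 and 1540. Preovulatory libraries 1 and 4 were the highest of all 20.

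The means were 2181 ± 673 at the preovulatory stage (SD, n = 4), 1862 ± 488 at predeviation, 1345 ± 287 at impending ovulation, 1338 ± 140 at deviation and 1130 ± 214 at postdeviation, and each overlapped its neighbour in this order. No comparison passed for miR-148b-3p. Its trend was -0.02 ± 0.07 per stage step (limma adjusted p = 0.865). It was above 0 with equal totals, equal totals without miR-148a, array weights, log2 reads as a covariate, without both shallow libraries and without predeviation library 4. Against predeviation the log2 change was -0.44 ± 0.32 at deviation (limma adjusted p = 0.833), -0.70 ± 0.32 at postdeviation (0.276), 0.22 ± 0.32 at the preovulatory stage (0.849) and -0.45 ± 0.32 at impending ovulation (0.498). The deviation value turned to 0.07 with quantile normalization. The 95% interval of the preovulatory change ran from -0.46 to 0.89. The F test gave a limma adjusted p = 0.295, and DESeq2 on recovered reads 0.0456. In that test DESeq2 called 43 of all miRNAs and limma 13.

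In share of the library, miR-148b-3p made up 0.149% ± 0.0358 at predeviation (SD, n = 4), 0.125% ± 0.0148 at deviation, 0.121% ± 0.0162 at postdeviation, 0.250% ± 0.0939 at the preovulatory stage and 0.146% ± 0.0198 at impending ovulation. Its trend of 0.0119 ± 0.00996 percentage points per step did not pass (permutation test, adjusted p = 0.259). The spread of this share between libraries was near counting error at 3 stages, with a coefficient of variation of 11.8% at deviation against 10.2% from counting alone, 13.3% against 11.5% at postdeviation and 13.5% against 11.1% at impending ovulation. It was 24.1% against 9.65% at predeviation and 37.6% against 7.97% at the preovulatory stage. For miR-148a the spread ran from 11.3% to 36.8%, while counting error was at most 0.902%.

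The preovulatory libraries differed in depth and in their share of miR-148b-3p. Preovulatory libraries 1 and 4, with 105466 and 110062 reads, held 0.350% (exact 95% interval 0.315 to 0.387) and 0.306% (0.274 to 0.341). Libraries 2 and 3, with 65120 and 27131 reads, held 0.150% (0.122 to 0.183) and 0.192% (0.143 to 0.251). Both deep libraries lay above both others, while of the latter the shallower had the higher value, with overlapping intervals. Predeviation library 2, the deepest of all with 110130 reads, had 0.200% (0.174 to 0.228), the highest of its stage. The 3 deepest libraries thus held the 3 highest shares. The next highest was in the shallowest of all 20, preovulatory library 3, whose value lay inside the interval of predeviation library 2.

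Over all 20 libraries the log2 share of miR-148b-3p had a Pearson r of 0.30 with log2 reads (permutation p = 0.194) and a Spearman rho of 0.28 (permutation p = 0.223), both with an adjusted p = 0.346 over 6 tests on 3 relations. Without the 2 libraries farthest in depth, preovulatory 3 and impending ovulation 2, r was 0.53, and after removal of stage means it was 0.54. A limma fit with log2 reads as a covariate was among 17 alternatives for the preovulatory difference of miR-148b-3p from predeviation. In all 17 the log2 change stayed above 0 (0.12 to 0.69) and did not pass. The part of depth in the preovulatory level was not tested in any other way. For miR-148a r was 0.35 (rho 0.28, permutation p = 0.126 and 0.231, adjusted p = 0.346) and 0.05 without those 2 libraries. The log2 ratio of the members had r = -0.01 (rho 0.08, permutation p = 0.969 and 0.739, adjusted p = 0.969 and 0.886) and 0.33 without those 2.

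**Figure D4:**
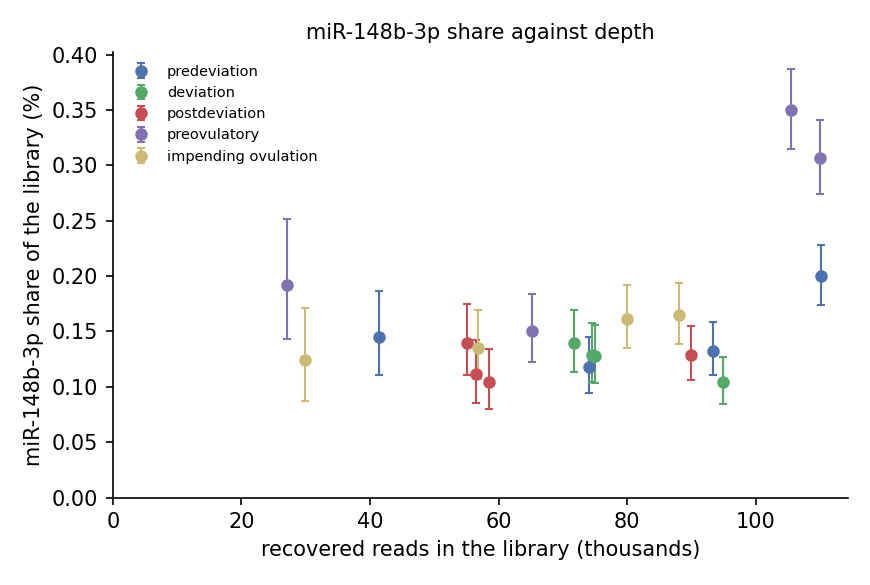
Share (%) of miR-148b-3p in each of the 20 libraries against the recovered reads of the library (in units of 1000), coloured by follicle stage, with exact 95% counting intervals. The 3 libraries of at least 105466 reads hold the 3 highest shares, among them preovulatory libraries 1 and 4. The shallowest library, preovulatory library 3, holds the next highest.

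Set against each other within a library, the members had their highest ratio of miR-148b-3p to miR-148a at the preovulatory stage. In stage order the mean log2 ratios were -7.63, -7.68, -7.49, -6.17 and -6.99. At predeviation, libraries held 4.76, 8.13, 5.97 and 2.85 reads of miR-148b-3p per 1000 of miR-148a, and at deviation 5.42, 3.74, 6.23 and 4.42. At postdeviation the values were 4.88, 6.84, 3.44 and 8.26. Preovulatory libraries held 16.0, 9.87, 13.6 and 17.2 and lay above all 16 others, and impending ovulation libraries held 6.81, 7.36, 7.75 and 9.85.

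The log2 ratio had a linear slope of 0.28 ± 0.09 (SE) per stage step in the permutation test over 20 libraries (adjusted p = 0.0115 over 4 measures). Leaving out any 1 library gave 0.24 to 0.33, with an adjusted p of 0.0344 or less, and with log2 reads taken out it was 0.29 (adjusted p = 0.00831). Between impending ovulation and predeviation the log2 ratio differed by 0.64 ± 0.34 (exact permutation p = 0.114, adjusted p = 0.152).

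After the high preovulatory ratios had been seen, all 10 pairs of stages were compared, so this choice is not independent of the values. The preovulatory ratio was 2.74-fold that of predeviation (log2 difference 1.45 ± 0.37), 2.85-fold that of deviation (1.51 ± 0.24) and 2.50-fold that of postdeviation (1.32 ± 0.33). The impending ovulation ratio was below the preovulatory one (log2 difference -0.82 ± 0.21) and 1.62-fold that of deviation (0.69 ± 0.20). Each of these 5 pairs did not overlap and had an exact permutation p = 0.0286, the smallest possible, with an adjusted p = 0.0571. Preovulatory and impending ovulation libraries nearly touched, at 9.87 and 9.85 reads per 1000. The other 5 pairs had adjusted p from 0.190 to 0.886.

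**Figure D5:**
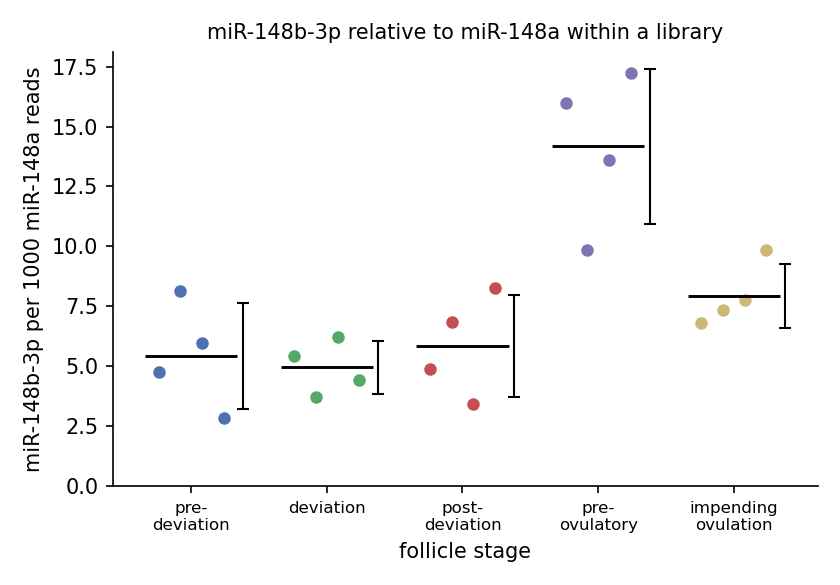
Reads of miR-148b-3p per 1000 reads of miR-148a in each of the 20 libraries, by follicle stage; points are libraries, horizontal lines are stage means and bars are 1 SD (n = 4). The 4 preovulatory libraries sit between 9.87 and 17.2, above every library of the other stages, the nearest being impending ovulation library 4 at 9.85.

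No relation between the levels of both members over libraries passed a test. On the log2 scale of scaled reads Pearson r was 0.15 (permutation p = 0.527) and Spearman rho -0.06 (permutation p = 0.812), with adjusted p of 0.703 and 0.812 over 4 tests on 2 scales. Without predeviation library 4 and deviation library 2, those farthest in miR-148a, r was -0.15, and after removal of stage means it was 0.36. In log2 share r was -0.29 (permutation p = 0.208, adjusted p = 0.417) and rho -0.41 (permutation p = 0.0754, adjusted p = 0.302), with r = -0.29 without the same 2 libraries and 0.08 after removal of stage means.

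Likeness to other miRNAs was described by Spearman correlation over the 20 libraries, among 130 miRNAs with a mean of at least 100 scaled reads. The 3 most like miR-148a were miR-146b-5p (0.62), miR-146a (0.59) and miR-194 (0.58), values that were 0.43, 0.20 and 0.21 in shares of the library. The 3 most like miR-148b-3p were let-7g (0.79), miR-361-3p (0.77) and miR-23b (0.73), with 0.76, 0.71 and 0.60 in shares. All miRNAs of a library share its scaling factor and depth, whose part in these values was not tested, and no p-value is given. MiR-146b-5p is also in the leukocyte list given below.

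Other miRNAs known in mammals to repress DNA methyltransferases or related chromatin enzymes were set beside the family. All 9 rows of the list were tested (miR-29a, miR-29b, miR-29c, miR-185, both arms of miR-342, miR-101, miR-26a and miR-143). None passed in limma in any of the 6 comparisons, in which 0.379% to 6.06% of all 264 miRNAs passed. Between 0 and 2 of the 9 had an unadjusted p under 0.05 in limma, against 21 to 55 of all 264 in the same comparisons. EdgeR called 0 of the list, and 27 of all miRNAs in its F test. DESeq2 called 1, miR-101 in the F test, where it called 43 of all miRNAs. With only 9 rows, so few calls do not set the list apart from all miRNAs. In the trend, miR-143 had -0.45 ± 0.14 per step (limma adjusted p = 0.0654), miR-26a 0.03 ± 0.08 (0.871), miR-101 -0.12 ± 0.11 (0.505) and miR-29a -0.15 ± 0.09 (0.348). The list median was -0.12 per step against -0.08 over all 264 miRNAs, with 5 of 9 lower against 151 of 264. Against predeviation it was -0.43 against -0.14 at deviation, -0.95 against -0.31 at postdeviation and -0.95 against -0.39 at impending ovulation. In each of these 8 of 9 were lower. At the preovulatory stage the list median was 0.15 against 0.04, with 4 of 9 lower. Of all 264 miRNAs, 149 were lower at deviation, 157 at postdeviation, 165 at impending ovulation and 127 at the preovulatory stage. The list median was the value of miR-29c at postdeviation (SE 1.60) and of miR-342-5p at impending ovulation (SE 1.47). MiR-29c and miR-185 averaged only 10.4 and 6.63 scaled reads. MiR-143 is also a smooth muscle and theca marker.

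Markers of cell types that the fluid could hold were summed per library as a description, with no test between stages. The granulosa list (5 of 5 rows above 0), on average mostly miR-21, ranged in its sum from 3.36% to 29.3% of a predeviation library. The range was 4.75% to 20.4% for deviation, 3.83% to 15.9% for postdeviation, 3.99% to 22.8% for preovulatory and 5.56% to 17.1% for impending ovulation libraries. Leukocyte markers (7 of 7) summed to 0.187% to 0.425% at predeviation and 0.0867% to 0.383% over the later stages, and the red blood cell list (4 of 4, with miR-144 above 0 in 2 libraries) to 0.957% to 7.64% over all 20, the highest in a preovulatory library. Epithelial markers (5 of 5) ranged from 0.129% to 1.11%, those of platelets and endothelium (2 of 2) from 0.146% to 1.03%, those of smooth muscle and theca (2 of 2) from 0.419% to 8.66%, and miR-122 of liver and plasma from 0.268% to 2.11%. Their part in the family's levels was not tested.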

How the data were processed

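Small RNA libraries were made from vesicles pelleted by ultracentrifugation with the TruSeq Small RNA kit, per the labels' protocols. The submitters' processing notes name bcl2fastq, Bowtie2 2.2.2, DESeq2 and the horse build EquCab3.0, without roles. Annotation and counting settings are not given in the sources used here. Although the authors named them CPM, the deposited values form a scaled read signal: columns summed to between 774632 and 1778185, and 100% of values above 0 were whole multiples (tolerance 1e-06) of the column's smallest, worth 7.04 to 36.5. Dividing by it recovered whole reads. In postdeviation library 2 only 93 values were at 20 times the smallest or less, so edgeR was also run without it. The test on a log scale, planned for CPM, was kept for this unit.

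Groups came from the titles. The 264 miRNAs reaching 10 scaled reads in 4 or more libraries entered 1 limma fit of all 20 libraries on log2(value + 1), with the prior variance following intensity (limma 3.58.1, R 4.3.3). P-values were two-sided, Benjamini-Hochberg adjusted over all 264, with a threshold of 0.05. The trend used stage scores from -2 to 2. Shares and ratios were tested by permutation (100000 resamples, or all 70 arrangements of 4 against 4), adjusted over 4 measures, since miR-152 was not analysed. Alternatives included edgeR 4.0.16 and DESeq2 1.42.0 on recovered reads. Scripts were tested on simulated data. The smallest chi-square per degree of freedom between replicates was 15.6, so none was treated as a duplicate. Named miRNAs were the members, the 3 most like each, up to 4 of the methyltransferase list (past the threshold, then most abundant), and markers. The members and lists were chosen with earlier results of these data known.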

Additional observations from a re-analysis of the deposited data

Results flagged for a closer look

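In groups of 4 libraries, a library was singled out when its gap to the nearest other exceeded 0.829 of the group's range. Of 35 groups examined 6 held such a library, and chance alone singles out about 1 group in 20. Predeviation library 4 was singled out by miR-148a (828709 scaled reads), by its share of miR-148a (46.6%), by the summed share of both members (46.7%) and by its column sum (1778185). These 4 values are not independent, since miR-148a is part of each. Postdeviation library 3 was singled out by miR-148a (292428 scaled reads) and preovulatory library 1 by miR-148a (188836), both as the highest of their stage. No library was singled out by miR-148b-3p or by the ratio of the members.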

How the results depend on the processing

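MiR-148b-3p rested on 37 to 369 reads per library. The 0 to 6 reads of miR-148b-5p were too few for comparing stages. Half-widths of 95% intervals had a median over all 264 miRNAs of 2.69 (log2) between stages and 0.60 per step of the trend. The adjusted F-test p of miR-148a (0.0808) came to 0.0338 among miRNAs with a mean of at least 100, 0.0390 with array weights, 0.0368 with edgeR, 0.00683 with DESeq2 and 0.0349 with edgeR without postdeviation library 2. That of miR-148b-3p was 0.0456 with DESeq2. The miR-148a trend was 0.022 with quantile normalization, and its call was lost with equal totals (-0.19), without the intensity trend (-0.30) and in libraries of at least 40000 reads (-0.28). The miR-148b-3p trend was 0.091 with equal totals, 0.028 with equal totals other than miR-148a, 0.024 with array weights, 0.0017 in libraries of at least 40000 reads and 0.0019 with log2 reads as a covariate. Quantile normalization gave miR-148a 0.22 at deviation, postdeviation and impending ovulation and 0.0 at the preovulatory stage, and miR-148b-3p 0.074 at deviation.

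The preovulatory call of miR-148a was lost with equal totals (-0.76), equal totals other than miR-148a (-1.02, adjusted p = 0.0888), no intensity trend (-1.24), only both stages compared (-1.24) and libraries of at least 40000 reads (-1.20). The impending ovulation difference of miR-148a passed among miRNAs with a mean of at least 100 (-1.09, adjusted p = 0.0211), with edgeR (-1.15), with DESeq2 (-1.14) and with edgeR without postdeviation library 2 (-1.31, adjusted p = 0.0265). The miR-148b-3p share at impending ovulation minus predeviation was 0.0126 points with log2 reads as a covariate. In all 4 alternatives run on them and without any 1 library, the trends of the miR-148a share and of the ratio kept their direction and their call. For the ratio, leaving miR-21 out of the sum or taking the log2 of the share does not change the measure. The replicate block cannot change either slope, since every stage holds each number. For the ratio, only log2 reads as a covariate and leaving out libraries could therefore have changed the direction. Why results moved between settings was not tested.

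Counts of called miRNAs moved as follows. The F test (13) gave 2 without the intensity trend, 45 with array weights, 27 with edgeR and 43 with DESeq2. The trend (15) gave 24 with equal totals, 31 with array weights, 28 with DESeq2 and 9 in libraries of at least 40000 reads. Deviation (1) gave 0 with pseudocount 10, the replicate block, only both stages or edgeR with or without postdeviation library 2, 7 with equal totals, 5 with equal totals other than miR-148a, 11 with array weights, and 2 with DESeq2 or in libraries of at least 40000 reads. Postdeviation (16) gave 6 with edgeR without postdeviation library 2. The preovulatory stage (13) gave 5 without the intensity trend, 47 with array weights, 5 with the replicate block, 2 with only both stages and 8 with edgeR without postdeviation library 2. Impending ovulation (15) gave 4 with only both stages, 24 with DESeq2 and 7 in libraries of at least 40000 reads.

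The labels do not say whether same-numbered libraries share more than a number. Deviations from stage means had a median r of -0.04 over 40 same-numbered pairs (from -0.28 to 0.30) and 0.02 over other pairs, and 1 of 20 libraries correlated best with its own number. With the replicate block the preovulatory difference of miR-148a was -1.24 (adjusted p = 0.0622).

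Leaving out 1 library at a time gave miR-148a trends from -0.33 to -0.22, preovulatory differences from -1.38 to -0.83, impending ovulation differences from -1.23 to -0.68 (past the threshold without predeviation library 1, deviation library 2 or preovulatory library 1) and deviation differences from -0.53 to 0.02. The miR-148b-3p trend ran from -0.058 to 0.00051. Between impending ovulation and predeviation the miR-148a share ran from -13.4 to -5.97 points, the summed share from -13.4 to -5.98, the miR-148b-3p share from -0.0129 to 0.0145 (higher without predeviation library 2 or impending ovulation library 1 or 2) and the log2 ratio from 0.36 to 0.86. The miR-148a share and the ratio passed there without predeviation library 2 (adjusted p = 0.0381). The F test called 7 to 20 miRNAs and the trend 9 to 25. Against predeviation, 0 to 5 were called for deviation, 7 to 21 for postdeviation, 4 to 14 for preovulatory and 5 to 21 for impending ovulation libraries. Among the pairs of stages compared after the data were seen, the log2 ratio ran from -0.34 to 0.17 for deviation minus predeviation, -0.15 to 0.36 for postdeviation minus predeviation and -0.00048 to 0.42 for postdeviation minus deviation.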
